A study of Arabidopsis thaliana with 27 samples.

Results

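In sorted pericycle cells of the Arabidopsis root, 14 genes were higher in the 3 libraries numbered replicate 2 than in the 3 libraries numbered replicate 1, and all 14 lay above the number 1 libraries under every treatment label. They were led by indole glucosinolate methyltransferases, a glutathione transferase, cell wall peroxidases and chitinases, all families known from plant defense. The comparison was built from the sample titles alone: pericycle libraries numbered 2 (labels mock, flg22 and Pep1) were set against pericycle libraries numbered 1 with the same 3 labels, which takes 6 of the 27 libraries of the series. A replicate number is normally a repeat of the same treatment. The study describes its biological experiments as independent and entered replicate in its model as a batch. By that account number 2 and number 1 are 1 experiment each, and a difference between experiments cannot be told apart from the number. The p values below measure spread among libraries after the number and label terms, not spread between experiments. Here the replicate number may carry the real treatment of a library, and the labels do not settle this. Groups are therefore called number 2 and number 1 throughout, and no treatment is assigned to either.

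All 6 libraries came from the enhancer trap line E3754, whose green fluorescent protein marks the pericycle cells that face the xylem poles. Roots labelled mock received water, roots labelled flg22 received a peptide of bacterial flagellin, and roots labelled Pep1 received a damage peptide of the plant itself, so number 2 and number 1 each hold 1 library of each label. The sample labels give the elicitor as 1 mM for 1 h on plants of 10 d, whereas the series text gives 1 µM and 2 h. The methods of the study give 1 µM for 1 h. They add the time of digestion and sorting to reach 2 h. For the sorted roots they give plants older than 10 d, a difference from the labels that was not resolved. Each library pooled the roots of many seedlings, and the roots were digested to protoplasts before sorting, a step that number 2 and number 1 share. Each library also carries a code number, apart from its title, that the 2 libraries of a label share and that differs between labels. The label therefore cannot be told apart from whatever the code stands for, which is not stated.

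The pericycle surrounds the xylem and phloem strands of the root just inside the endodermis. Lateral roots arise from divisions of its cells at the xylem poles. In pattern-triggered immunity, surface receptors such as FLS2 perceive a peptide, oxidases and kinases relay the signal, and WRKY factors switch on genes for antimicrobial metabolites, peroxidases and cell wall enzymes.

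Gene counts ran over 9680851 to 13322042 per library in number 2 and over 4172741 to 11813114 in number 1, where the Pep1 library was the smallest. Mitochondrial genes took 30.4 to 33.0% of gene counts in number 2 and 28.6 to 42.0% in number 1. Number 2 was higher in 1 of 3 same-label pairs (two-sided exact sign-flip permutation test, p = 0.50, with 0.25 the smallest p that 3 pairs allow). Ribosomal protein genes took 3.13 to 4.06% in number 2 and 2.12 to 3.29% in number 1, with number 2 higher in 3 of 3 pairs (exact p = 0.25). With ribosomal genes left out of the fit, 16 genes were called higher in number 2, among them all 14. The summed level of 8 xylem-pole pericycle markers was 2221 to 2697 CPM (counts scaled to library size with TMM factors) in number 2 and 2224 to 4483 CPM in number 1. Much of this sum came from NRT1.5 and PHO1, at 798.2 to 1103 and 809.9 to 1086 CPM in number 2, whereas HMA2 had 41.3 to 162.6 CPM. Summed markers of other root tissues were lower. Sums over unlike genes do not measure purity, and the sums were not taken in sorted cortex or epidermis. Summed CPM in number 2 and in number 1 were 20.8 to 68.2 and 18.7 to 129.7 for cortex, 33.1 to 66.5 and 28.3 to 62.1 for non-hair epidermis, 5.47 to 74.1 and 5.36 to 26.6 for endodermis, 2.90 to 77.1 and 21.7 to 67.6 for root hairs, 63.3 to 139.4 and 45.3 to 278.5 for phloem, 19.8 to 58.9 and 18.5 to 60.2 for xylem, 26.1 to 115.4 and 31.0 to 65.55 for root cap, and 28.6 to 108.9 and 34.6 to 109.9 for green tissue. These ranges overlapped between number 2 and number 1 for every tissue. VND6 (xylem), ESB1 (endodermis) and LHCB1.1 (green tissue) had no counts in the 6 libraries. Fewer cells of a type and less RNA per cell cannot be told apart in such bulk libraries.

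The test compared number 2 with number 1 with the treatment label as a block, in edgeR on the 9 pericycle libraries, where the 3 libraries numbered 3 also entered the count filter, the scaling, the label terms and the estimate of the spread. Of 17929 genes tested, 14 were higher in number 2 at a Benjamini-Hochberg adjusted p under 0.05, which is 0.0781% of the genes tested. No gene was lower (0%). At an unadjusted p under 0.05, 462 genes were higher in number 2 (2.58%) and 210 were lower (1.17%). DESeq2, a second tool, called 293 genes higher and 146 lower, among them all 14. By their ranges alone, 1053 genes (5.87%) had every number 2 library above every number 1 library and 793 (4.42%) had every number 2 library below.

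**Figure D1:**
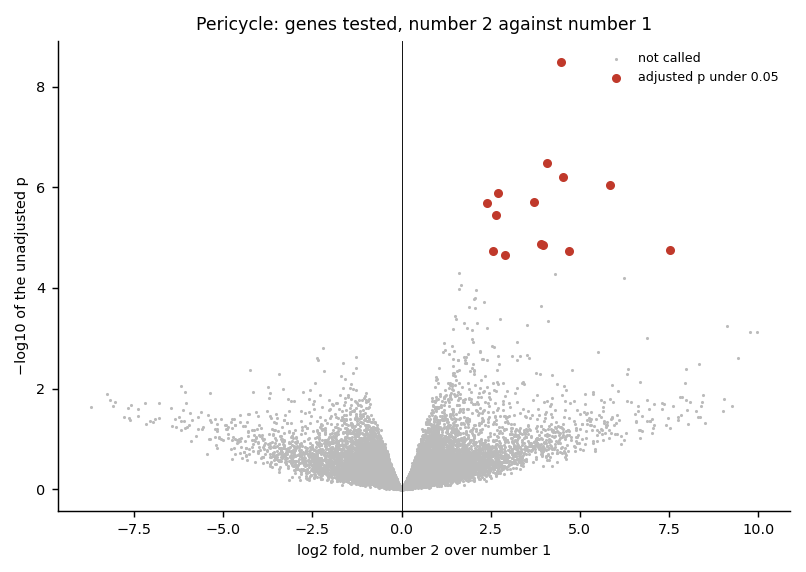
Each point is 1 of the 17929 genes tested in the pericycle; the x axis is the log2 fold of number 2 over number 1 and the y axis is −log10 of the unadjusted p from edgeR. The 14 called genes, in red, all lie to the right of 0, at log2 folds of 2.39 to 7.54.

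The most secure difference was that of IGMT2 (AT1G21120, chr1:7395179-7396823 in TAIR10.1), an O-methyltransferase that modifies indole glucosinolates. Its levels were 344.5, 258.9 and 249.5 CPM in the mock, flg22 and Pep1 libraries of number 2, against 14.1, 9.34 and 15.1 CPM in those of number 1. The number 2 libraries were thus close to one another and far above the number 1 libraries (log2 fold 4.48, SE 0.38, adjusted p = 5.84e-05). Its neighbour IGMT4 had 173.5, 158.7 and 59.5 CPM in number 2, against 4.77, 10.4 and 7.33 CPM in number 1 (log2 fold 4.09, SE 0.49, adjusted p = 0.0030). IGMT3, next in the same tandem array, had 151.1, 69.1 and 173.8 CPM in number 2, against 16.2, 35.8 and 46.8 CPM in number 1, without overlap, but missed the threshold (log2 fold 2.06, adjusted p = 0.17). IGMT1, the remaining gene of the array, had a log2 fold of 0.60 with overlapping groups, and IGMT5, which lies elsewhere on chromosome 1, had a log2 fold of -0.09. These copies resemble each other: 24.2% of the 100-base stretches in the exons of IGMT2 and 25.9% of those of IGMT3 recur in the genome. The shares were 2.94% for IGMT4 and 2.16% for IGMT1. Reads with several alignments were not counted, so reads from recurring stretches may be missing from the counts of IGMT2 and IGMT3.

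GSTF7, a phi class glutathione transferase of detoxification, had 107.6, 87.2 and 25.2 CPM in number 2, against 3.098, 0.15 and 0.81 CPM in number 1 (log2 fold 5.84, SE 0.75, adjusted p = 0.0040). Its near copy GSTF6 had 248.5, 157.1 and 166.2 CPM in number 2, against 58.2, 48.7 and 2.04 CPM in number 1 (log2 fold 2.75, adjusted p = 0.26). Of their 100-base stretches 1.76% and 1.81% recur in the genome. GSTU12, a tau class enzyme, was just outside the threshold with 44.8, 15.5 and 41.0 CPM in number 2, against 0.83, 0.15 and 6.51 CPM in number 1 (log2 fold 4.29, adjusted p = 0.059).

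Class III peroxidases, secreted enzymes that use hydrogen peroxide in the cell wall, supplied 4 of the 14 genes. PER4 had 297.7, 139.3 and 270.1 CPM in number 2, against 24.4, 30.5 and 2.44 CPM in number 1 (log2 fold 3.97, SE 0.64, adjusted p = 0.026). The peroxidase gene AT1G14550, next to PER4 on chromosome 1, had 205.8, 115.2 and 129.9 CPM in number 2, against 1.31, 19.6 and 2.85 CPM in number 1 (log2 fold 4.70, SE 0.78, adjusted p = 0.026). No 100-base stretch of either gene recurs in the genome. PRX71 (AT5G64120) had 137.6, 61.3 and 120.5 CPM in number 2, against 12.03, 7.04 and 4.89 CPM in number 1 (log2 fold 3.72, SE 0.51, adjusted p = 0.0054). The peroxidase AT5G39580 was the most abundant of them by counts, with 479.7, 223.9 and 313.9 CPM in number 2, against 85.6, 35.8 and 38.7 CPM in number 1 (log2 fold 2.71, SE 0.36, adjusted p = 0.0048). For each of these peroxidases the lowest number 2 library was above the highest number 1 library.

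Chitinases cleave the chitin of fungal walls, and genes of the family AT2G43620 and AT1G02360 were called. AT2G43620 had 226.4, 122.7 and 141.5 CPM in number 2, against 19.5, 3.215 and 2.85 CPM in number 1 (log2 fold 4.53, SE 0.57, adjusted p = 0.0037). AT1G02360 had 163.5, 134.9 and 134.0 CPM in number 2, against 38.8, 7.35 and 28.5 CPM in number 1 (log2 fold 2.89, SE 0.49, adjusted p = 0.029). Around AT2G43620 on chromosome 2, the related gene AT2G43590 had a log2 fold of 3.88 (adjusted p = 0.87) and AT2G43610 one of 1.06 (adjusted p = 0.999). CHI (AT2G43570), at very low counts, had one of 4.08 (adjusted p = 0.999). None of these neighbours was called, but AT2G43590 and CHI were higher in 3 of 3 pairs without overlap. CHIA, a further chitinase, had 10.9, 4.85 and 7.37 CPM in number 2, against 0.24, 0 and 0 CPM in number 1, where only 2 counts were found. Its ratio of scaled counts, number 2 over number 1, was 69.8, with a 95% exact interval of 19.1 to 580.2 that covers counting error only (adjusted p of the edgeR test 0.87).

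The other called genes belong to various families. MLO12, of the family of membrane proteins known from powdery mildew susceptibility, had the highest CPM of the 14 at 952.5, 752.3 and 772.2 CPM in number 2, against 148.6, 126.5 and 203.6 CPM in number 1 (log2 fold 2.39, SE 0.33, adjusted p = 0.0054). The aspartyl protease AT5G48430 had 603.8, 311.4 and 512.9 CPM in number 2, against 119.5, 28.5 and 105.0 CPM in number 1 (log2 fold 2.65, SE 0.38, adjusted p = 0.0080). AT2G38870, annotated as a protease inhibitor of the potato inhibitor I type, had 560.5, 333.6 and 146.0 CPM in number 2, against 48.1, 60.01 and 50.1 CPM in number 1 (log2 fold 2.57, SE 0.42, adjusted p = 0.026). It was highest under mock and lowest under Pep1 in number 2, whereas the number 1 libraries lay within 48.1 to 60.01 CPM. The hydrolase AT2G39400 had 183.0, 113.5 and 79.0 CPM in number 2, against 14.2, 1.23 and 16.3 CPM in number 1 (log2 fold 3.92, SE 0.63, adjusted p = 0.026). Its relatives AT2G39410 and AT2G39420 had log2 folds of 0.47 and 0.25 and were not called, although AT2G39410 was higher in 3 pairs without overlap. PP2C5, a protein phosphatase of the 2C type, was nearly absent from number 1, with 26.8, 22.2 and 17.8 CPM in number 2, against 0.24, 0 and 0 CPM in number 1. With 550 counts in number 2 and 2 in number 1, the ratio of scaled counts was 193.8, with a 95% exact counting interval of 53.4 to 1604 (adjusted p = 0.026).

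**Figure D2:**
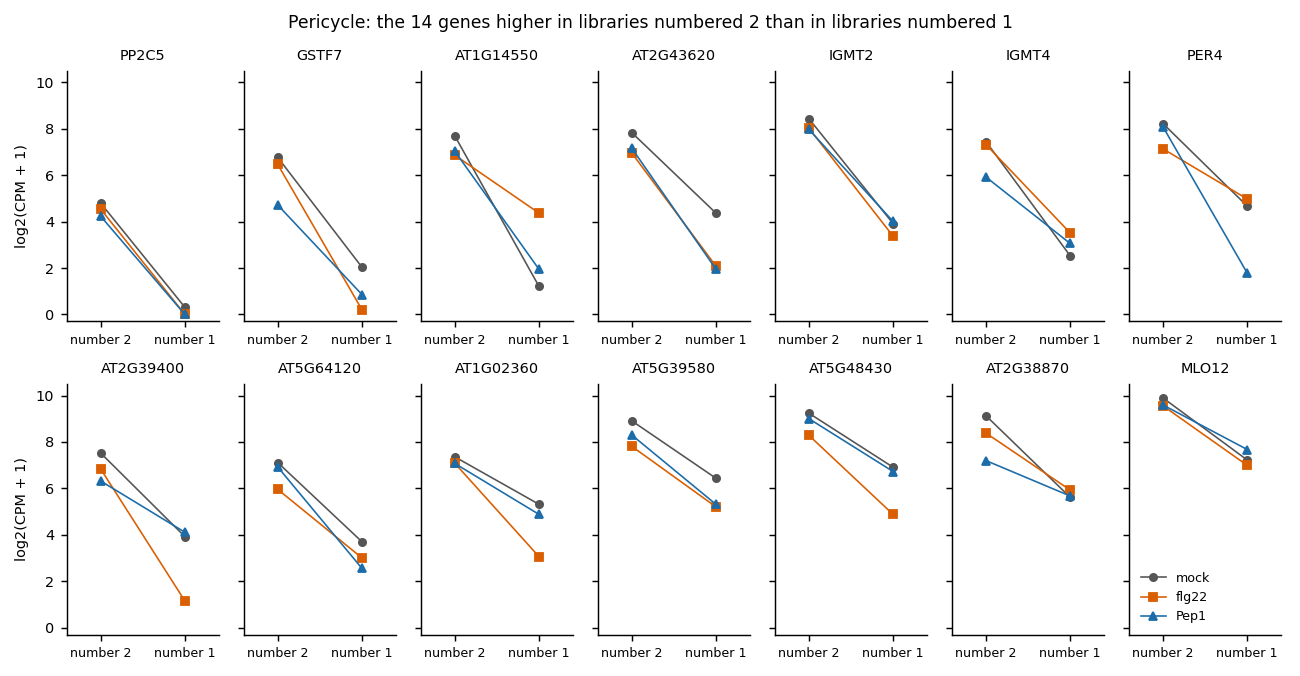
Levels of the 14 called genes in the 6 pericycle libraries as log2(CPM + 1); number 2 is on the left and number 1 on the right of each panel, and a line joins the 2 libraries of a label. Every line falls from left to right, and no number 1 library reaches the level of a number 2 library of the same gene (AT5G64120 is PRX71).

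The difference in the 14 genes was seen under each treatment label. These genes were called from the same libraries, and the call favours genes that differ in every pair, so the values by pair are descriptive only. The median of their log2 differences between number 2 and number 1 was 3.56 in the mock pair, 3.66 in the flg22 pair and 3.52 in the Pep1 pair. The widest difference fell in the mock pair for 4 genes, in the flg22 pair for 6 and in the Pep1 pair for 4. Between labels, the log2 folds of the 14 genes were -1.55 to 0.82 for flg22 against mock (lowest adjusted p 0.46) and -1.40 to -0.02 for Pep1 against mock (lowest adjusted p 1.00). In the same edgeR fit, 0 genes were called for either label (0%), with 1389 and 612 genes at an unadjusted p under 0.05 for flg22 and Pep1. The label contrasts were not run in DESeq2, the tool of the study, which called more genes than edgeR between number 2 and number 1. The mock library of number 2 was thus above the flg22 and Pep1 libraries of number 1 for all 14 genes. Libraries numbered 3, which share this fit, had 610.4, 778.1 and 681.9 CPM of IGMT2 under mock, flg22 and Pep1, and 503.4, 261.2 and 416.4 CPM of MLO12. Over all genes, number 3 against number 1 had 69 called higher and 21 lower, and number 3 against number 2 had 0. Of the 14 genes, MLO12 and AT5G48430 were not called for number 3 against number 1 (adjusted p = 0.12 and 0.25), and the rest were called higher.

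The promoters of the called genes were read for the W-box, the element that WRKY factors bind, spelled TTGACC or TTGACT and searched on both strands in the 250 bases before the annotated gene start. It was present in 10 of 14, against 28.9% of the 17722 promoters of the same length before protein-coding genes tested, and more than 1 copy was present in 6 of 14, against 6.26%. A match is a description of the letters and was not tested. PER4, AT1G02360, AT2G38870 and AT5G48430 held none in this window. The promoters shown are from genes with 2 or 3 copies: PP2C5, whose last copy ends at the gene start, the chitinase AT2G43620, where a pair of copies adjoin, PRX71 with copies in both orientations, and MLO12, likewise in both orientations. Capitals mark the W-box, the letters run 5′ to 3′ on the strand of the gene, and the positions are PP2C5 at chr2:16782116-16782365 (plus strand), AT2G43620 at chr2:18095094-18095343 (minus strand), PRX71 at chr5:25661008-25661257 (minus strand) and MLO12 at chr2:16359944-16360193 (minus strand), all from RefSeq TAIR10.1.
PP2C5: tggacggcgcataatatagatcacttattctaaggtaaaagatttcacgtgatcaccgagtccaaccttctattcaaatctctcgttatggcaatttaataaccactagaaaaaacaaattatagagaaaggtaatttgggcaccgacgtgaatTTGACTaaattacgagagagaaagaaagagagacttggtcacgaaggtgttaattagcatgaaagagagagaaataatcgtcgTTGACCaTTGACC
AT2G43620: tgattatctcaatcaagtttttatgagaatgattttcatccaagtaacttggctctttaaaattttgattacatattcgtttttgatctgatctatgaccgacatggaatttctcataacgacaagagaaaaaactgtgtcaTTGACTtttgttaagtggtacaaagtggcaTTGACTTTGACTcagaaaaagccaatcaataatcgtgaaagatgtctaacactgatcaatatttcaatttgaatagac
PRX71: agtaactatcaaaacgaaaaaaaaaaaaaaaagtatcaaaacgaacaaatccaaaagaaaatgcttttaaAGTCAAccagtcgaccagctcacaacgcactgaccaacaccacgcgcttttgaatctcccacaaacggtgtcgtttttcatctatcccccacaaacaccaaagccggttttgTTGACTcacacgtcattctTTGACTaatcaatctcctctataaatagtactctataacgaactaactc
MLO12: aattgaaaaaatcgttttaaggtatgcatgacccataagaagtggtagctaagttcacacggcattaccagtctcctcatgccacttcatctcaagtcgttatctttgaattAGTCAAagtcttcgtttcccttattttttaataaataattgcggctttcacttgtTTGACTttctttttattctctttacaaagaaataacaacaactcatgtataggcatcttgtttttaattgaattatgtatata

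At the level of perception, the receptor list leaned upward without passing the test. Of 13 pattern receptors and co-receptors tested, 12 had a log2 fold above 0 and 1 below (median 0.83, against 0.01 over all genes tested), none was called, and 6 had every number 2 library above every number 1 library, against 5.87% of all genes tested. FRK1, a receptor kinase used as a marker of the flg22 response, had 31.8, 14.2 and 30.7 CPM in number 2, against 8.82, 0 and 0 CPM in number 1 (log2 fold 6.34, adjusted p = 0.81). FLS2, the flagellin receptor, had 35.9, 23.1 and 47.5 CPM in number 2, against 9.53, 15.8 and 6.92 CPM in number 1 (log2 fold 1.63, adjusted p = 0.999). LYK4, a chitin co-receptor, had a log2 fold of 2.55. The 6 genes without overlap were FRK1, FLS2, LYK4, BKK1, BIR1 and the kinase BIK1. The Pep1 receptor PEPR1 had a log2 fold of 0.03 and LYK5, the member below 0, one of -0.34, both with overlapping groups. CERK1, BAK1, EFR, PEPR2 and SOBIR1 lay above 0, also with overlapping groups. Of the precursors of Pep peptides, PROPEP1 and PROPEP3 had log2 folds of 0.67 and 1.64 with overlapping groups.

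Early signaling genes held no call. The 14 MAP kinase and calcium signaling genes had a median log2 fold of -0.04 and ran over -0.84 to 0.41, and none was called. MKK4, the lowest, had every number 2 library below every number 1 library, against 4.42% of all genes tested. RBOHD, the oxidase of the immune oxidative burst, had 514.9, 599.7 and 666.7 CPM in number 2, against 442.9, 734.1 and 564.7 CPM in number 1 (log2 fold 0.07, SE 0.30). Its relative RBOHA was low, with 11.4, 3.13 and 9.83 CPM in number 2, against 1.43, 0 and 0.41 CPM in number 1 (adjusted p = 0.999). RBOHE went the other way without overlap, with 8.70, 0 and 8.26 CPM in number 2, against 12.4, 68.3 and 23.2 CPM in number 1 (log2 fold -3.55, adjusted p = 0.999). RBOHB, RBOHC and RBOHF had overlapping groups. Of 18 WRKY factors tested, 16 had a log2 fold above 0 (median 0.52), none was called, and 3 stood above number 1 without overlap, against 5.87% of all genes tested. WRKY30 had 129.6, 75.7 and 45.8 CPM in number 2, against 31.7, 30.01 and 22.0 CPM in number 1 (log2 fold 1.48, adjusted p = 0.60), and WRKY53 had a log2 fold of 1.11. WRKY33, the best known regulator of camalexin, had a log2 fold of 0.58 with overlapping groups.

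Among 24 tested genes of indole glucosinolates and camalexin, 2 were called (IGMT2 and IGMT4), against 0.0781% of all genes tested. Of the 24, 8 were higher at an unadjusted p under 0.05 (2.58% of all genes tested). Without overlap, 9 stood above number 1 (5.87% of all genes tested did) and 1 below (4.42%). PEN2, the myrosinase that activates indole glucosinolates, had 757.5, 451.5 and 548.1 CPM in number 2, against 386.3, 255.8 and 148.6 CPM in number 1 (log2 fold 1.21, adjusted p = 0.60). PEN3, the transporter that exports their products, had 3037, 2881 and 3272 CPM in number 2, against 1890, 1966 and 1034 CPM in number 1 (log2 fold 0.96, adjusted p = 0.999). CYP81F2, which hydroxylates the indole ring, had a log2 fold of 3.09, and CYP71A12 of the camalexin branch one of 3.82 (adjusted p = 0.65 and 0.999). AT1G26380, of the berberine family, had 22.8, 3.596 and 8.15 CPM in number 2 and no counts in number 1, which is at least 72.4-fold higher against a floor of 3 counts over the group (adjusted p = 0.30). MYB51, a transcription factor of the pathway, did not separate the groups, with 55.9, 5.47 and 22.0 CPM in number 2, against 17.75, 10.7 and 24.0 CPM in number 1.

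Of 18 glutathione transferases tested, 1 was called (0.0781% of all genes tested were), and the list median was 0.45. At an unadjusted p under 0.05, 5 were higher (2.58% of all genes tested), and 6 did not overlap, all upward (5.87%). Of 9 defense peroxidases and chitinases tested, 4 were called, against 0.0781% of all genes tested, and the list median was 3.72. All 4 were peroxidases, namely PER4, AT1G14550, PRX71 and AT5G39580. The called chitinases AT2G43620 and AT1G02360 are not in this list, and its member CHIA was not called. The list of peroxidases and chitinases was drawn up with earlier results of these data known, so its count is no independent evidence. Of 11 salicylic acid genes tested none was called; CBP60G, an activator of salicylic acid synthesis, had 40.7, 55.3 and 41.0 CPM in number 2, against 17.9, 5.97 and 13.0 CPM in number 1 (log2 fold 2.03, adjusted p = 0.84).

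Hormone and stress lists held no called gene. None of 23 jasmonate genes was called or had an unadjusted p under 0.05 (median log2 fold -0.08), none of 19 ethylene genes was called (median 0.24), and none of 9 heat shock genes had an unadjusted p under 0.05 (median 0.08). Of 10 touch and wounding genes, TCH3 alone had an unadjusted p under 0.05 (log2 fold 0.84), and none was called. None of 14 phenylpropanoid genes was called (median -0.21), and the lignin gene CAD4 had a log2 fold of -0.90. Of 13 lateral root and auxin genes none was called (median 0.22). The 10 cell cycle genes were at low counts, with a median log2 fold of 1.05 and none called.

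Of 16 aquaporins, or water channels, tested, 15 had a log2 fold below 0 (median -0.62) and 6 had every number 2 library below every number 1 library, against 4.42% of all genes tested, but none was called. Phenylpropanoid genes (11 of 14), touch and wounding genes (7 of 10) and jasmonate genes (14 of 23) also lay more often below 0 than above. PIP1;5 had 113.6, 112.7 and 182.9 CPM in number 2, against 289.3, 251.4 and 255.7 CPM in number 1 (log2 fold -1.01, SE 0.35, adjusted p = 0.999). TIP2;2, a tonoplast channel, had 26.5, 30.8 and 44.8 CPM in number 2, against 110.8, 107.9 and 112.0 CPM in number 1 (log2 fold -1.81, SE 0.69, adjusted p = 0.999). PIP2;7 had 383.5, 372.1 and 350.5 CPM in number 2, against 880.1, 652.3 and 522.8 CPM in number 1 (log2 fold -0.88). The groups of these 3 genes did not overlap. In the other cell types, aquaporins tested had a log2 fold below 0 for 16 of 16 in the cortex (median -0.87) and 15 of 16 in the epidermis (median -0.75).

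**Figure D3:**
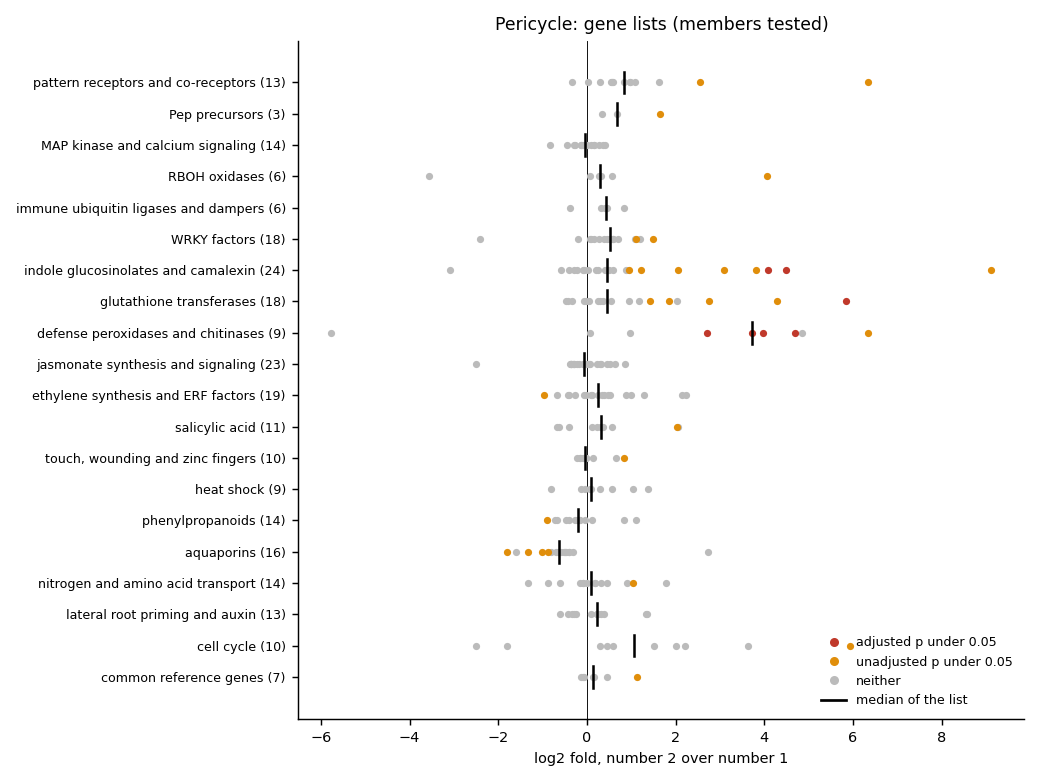
Log2 folds of number 2 over number 1 in the pericycle for the tested members of each gene list (number of members tested in brackets); red points passed the adjusted threshold, orange points had an unadjusted p under 0.05, and black bars are list medians. Red points occur in 3 lists, those of indole glucosinolates, glutathione transferases, and peroxidases with chitinases, and the aquaporins lie left of 0 with 1 exception.

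Housekeeping and identity genes were read next. Of 7 common reference genes none was called (median log2 fold 0.14). Of the 7 pericycle markers tested, NRT1.5, which loads nitrate into the xylem, had 1008, 798.2 and 1103 CPM in number 2, against 940.7, 2124 and 1029 CPM in number 1, and none was called (median -0.29). AHP6, the eighth marker, fell below the count filter. CASP1 of the endodermis had 28.9, 2.81 and 0.89 CPM in number 2, against 0.71, 0 and 0.41 CPM in number 1, so a single library, mock of number 2, carried it. Of 303 ribosomal protein genes tested, 223 had a log2 fold above 0 (median 0.39), and none was called. At an unadjusted p under 0.05, 33 were higher and 1 was lower, against 2.58% and 1.17% of all genes tested. LHT1, an amino acid transporter, had 650.7, 494.3 and 462.0 CPM in number 2, against 251.4, 310.9 and 220.7 CPM in number 1 (log2 fold 1.05, adjusted p = 0.81).

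Beyond the called genes, the largest folds belonged to genes with few or no counts in number 1, and none of them passed the adjusted threshold apart from PP2C5. They were taken as the 10 highest log2 folds among 380 genes with an unadjusted p under 0.05, log2 CPM averaging 2 or more, and 3 of 3 same-label pairs in 1 direction. PLA2A, a patatin-like phospholipase, had 31.8, 0.47 and 25.4 CPM in number 2 and no counts in number 1, at least 123.6-fold higher against the floor of 3 counts over the group. The zinc-finger gene AT1G67270 was at least 108.1-fold higher, the receptor kinase gene AT3G47090 at least 67.4-fold, the methyltransferase PXMT1 at least 36.2-fold, the receptor kinase CRK5 at least 31.0-fold and AT1G60720 at least 29.1-fold, all with no counts in number 1. WRKY41, with 1 count in number 1, had 11.6, 3.596 and 2.57 CPM in number 2, a ratio of scaled counts of 108.5 with a 95% counting interval of 19.2 to 4315. AT3G07860 had a ratio of 71.5 with an interval of 19.6 to 594.7. In PLA2A the flg22 library of number 2 was near the floor, so this gene was uneven within number 2. The same held for AT1G60720, with 0.54 CPM under mock and 12.8 under flg22 in number 2. AT3G07860 had 0.67 CPM under Pep1 and 16.4 under flg22 in number 2.

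The 10 largest falls by the same rule, out of 162 genes, all had an adjusted p of 0.999, and in 6 of them the flg22 library of number 1 was the highest. They were AT3G20240, AT5G14450, AT2G39640, FAF1, AT4G08360, AT4G21890, AT5G01940, AT4G39600, ENODL20 and AT5G38590, with log2 folds of -6.18 to -4.54. FAF1, for example, had 0, 1.56 and 0 CPM in number 2, against 0.36, 36.1 and 4.48 CPM in number 1. AT5G38590, an F-box gene, was more even, with 3.76, 0 and 2.01 CPM in number 2, against 15.9, 11.8 and 19.1 CPM in number 1.

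The same comparison in the other cell types was then set beside that of the pericycle, in 1 edgeR fit of all 27 libraries. Of the 14 pericycle genes, 12 were called higher in number 2 in the cortex (0.668% of 19464 genes tested were) and 14 in the epidermis (0.796%). PP2C5 and AT2G39400 missed the threshold in the cortex, with log2 folds of 2.74 and 2.75. For no gene of the 14 did the interaction of cell type and number pass, with a lowest adjusted p of 0.52 against the cortex and 0.67 against the epidermis. PP2C5 had log2 folds of 7.47 in the pericycle, 2.74 in the cortex and 4.95 in the epidermis, and its unadjusted p for pericycle minus cortex was 0.000722 (adjusted p = 0.52). MLO12 had log2 folds of 2.37 in the pericycle, 3.68 in the cortex and 1.57 in the epidermis.

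Over all genes, the interaction test called 0 genes between pericycle and cortex (0%, with 1301 genes at an unadjusted p under 0.05 in edgeR and 315 called by DESeq2) and 4 between pericycle and epidermis (0.0206%, with 286 called by DESeq2). All 4 had log2 folds of -0.11 to 0.14 in the pericycle and were called higher in number 2 in the epidermis. RBOHD had 437.8, 525.4 and 574.4 CPM in number 2 and 382.6, 639.6 and 500.8 CPM in number 1 of the pericycle, on the scale of the joint fit. In the epidermis it had 38.6, 36.9 and 25.0 CPM in number 2, against 4.32, 4.78 and 3.52 CPM in number 1. Its log2 fold was thus 0.05 in the pericycle, 0.48 in the cortex and 2.99 in the epidermis, and pericycle minus epidermis was -2.94 (SE 0.39, adjusted p = 0.0068). CYP83B1, which commits indole compounds to glucosinolate synthesis, differed likewise by -3.52 (adjusted p = 0.015), with log2 folds of -0.11 in the pericycle and 3.41 in the epidermis. CNGC10, a cation channel gene, differed by -3.75 and JAZ6, a repressor of jasmonate signaling, by -3.38 (adjusted p = 0.049 each). The number 1 libraries of the pericycle held 382.6 to 639.6 CPM of RBOHD, above all 3 number 2 libraries of the epidermis.

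**Figure D4:**
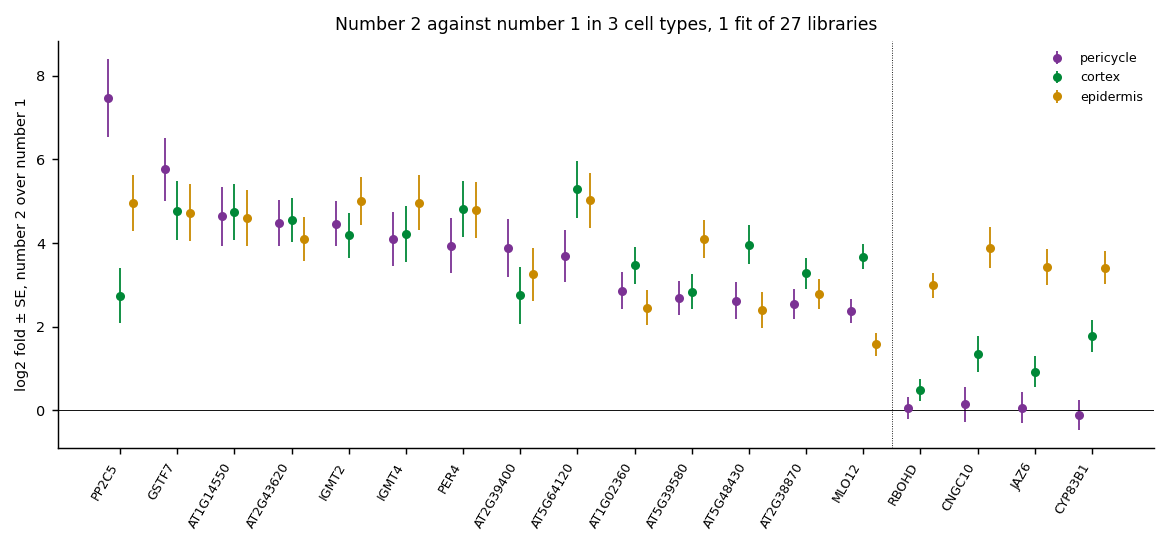
Log2 folds of number 2 over number 1 with standard errors in pericycle, cortex and epidermis from the fit of 27 libraries; the 14 genes called in the pericycle are left of the dotted line and the 4 genes called for pericycle minus epidermis are right of it. The 14 genes lie above 0 in all 3 cell types, whereas RBOHD, CNGC10, JAZ6 and CYP83B1 lie near 0 in the pericycle and at 2.99 to 3.89 in the epidermis.

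**Figure D5:**
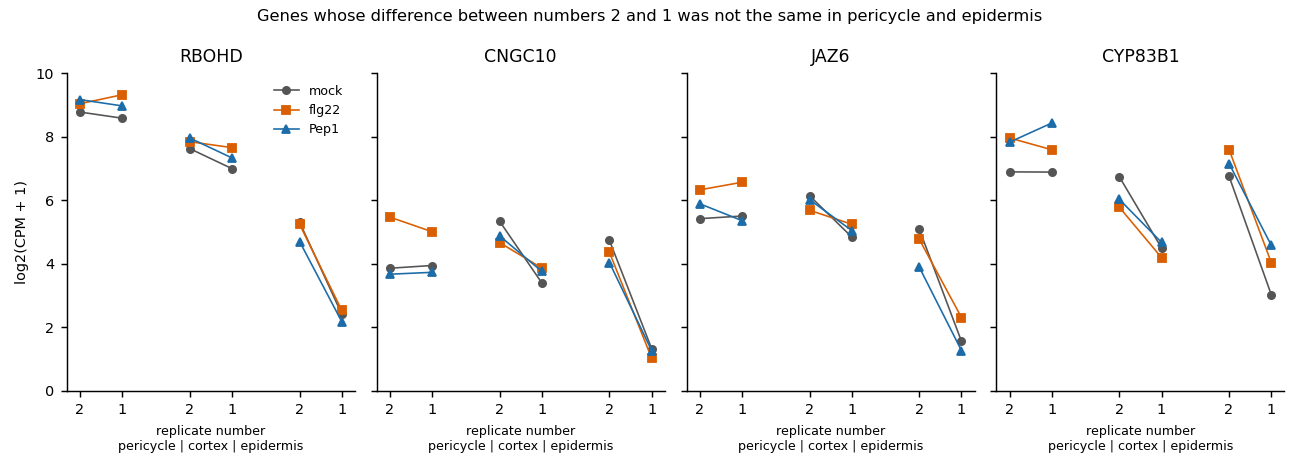
Levels of RBOHD, CNGC10, JAZ6 and CYP83B1 as log2(CPM + 1) in libraries numbered 2 (left of each pair) and 1 (right) of pericycle, cortex and epidermis, with a line for each label. The pericycle lines are nearly level, and the epidermis lines drop from number 2 to number 1 under all 3 labels.

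The count of called genes rested in part on single libraries. It was 8 without mock of number 1, 9 without flg22 of number 1, 23 without mock of number 3 and 25 without flg22 of number 3, and 14 to 18 without any other single library. GSTF7, IGMT2, IGMT4, AT2G43620, AT5G39580 and PRX71 passed in all 17 alternative analyses.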

How the data were processed

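RNA of sorted cells was sequenced in 27 libraries. The authors deposited unnormalized counts for each gene, made with STAR and LiBiNorm on TAIR10, over exons and without strand, per the methods of the study, whereas the submitters' processing notes name TopHat2 2.0.14 and HTSeq. Strand was not used, so reads of overlapping or antisense genes cannot be told apart. In the 6 libraries compared, unassigned reads without a gene, ambiguous ones and those with several alignments were 6.65 to 9.31%, 4.02 to 5.51% and 61.4 to 66.2% of all counted. These rows, 152 mitochondrial and 133 plastid genes were left out, which left 33977 genes, of which 32536 were matched to TAIR10.1 by locus tag.

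The 9 pericycle libraries were fitted with TMM factors in edgeR 4.0.16, under R 4.3.3 and limma 3.58.1, after filterByExpr (minimum count 10, minimum total 15), and tested with the quasi-likelihood F test, with replicate number and treatment label as terms and Benjamini-Hochberg adjustment. Differences between cell types were interactions in a fit of 27 libraries. Adjusted p values come from edgeR unless DESeq2 1.42.0 is named. CPM are TMM-scaled, ratios pool the counts of 3 libraries, intervals are exact Clopper-Pearson at 95%, and counting error only is covered. The replicates were separate experiments per the study. The steps were tested on simulated data. Python 3.11.15 with scipy 1.17.1 did the rest.

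Named genes are every called gene, the 10 largest rises and falls (unadjusted p under 0.05, mean log2 CPM of at least 2, one direction in 3 pairs), the leading members of each list, genes the study names, and family neighbours. CNGC10 and the remarks on single libraries were chosen after values were seen. The members and all 29 lists, with the ribosomal protein genes beside them, were chosen with earlier results of these data known. Alternatives were DESeq2, RLE, library totals, no count filter, ribosomal genes left out, the 6 libraries alone, all 27 libraries, no block and each library left out.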

Additional observations from a re-analysis of the deposited data

Results flagged for a closer look

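In the test of the difference itself, 4 genes had log2 folds of number 2 over number 1 that differed between the pericycle and the epidermis. The log2 fold in the pericycle minus that in the epidermis was -3.75 for CNGC10, -3.38 for JAZ6, -3.52 for CYP83B1 and -2.94 for RBOHD. RBOHD passed in each alternative tried, with an adjusted p of 0.037 at most. CNGC10 and JAZ6 were at the threshold (adjusted p = 0.049 each) and with RLE size factors missed it (adjusted p = 0.052 each). CNGC10 also missed it with library totals (adjusted p = 0.12) and without ribosomal genes (adjusted p = 0.052). CYP83B1 missed it without mock of number 2, Pep1 of number 1 or Pep1 of number 2 (adjusted p 0.10, 0.051 and 0.088). When each of the 6 pericycle libraries was left out in turn, CNGC10 missed it in 4 cases and JAZ6 in 5.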

How the results depend on the processing

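The direction of all 14 called genes was kept in every alternative. Genes called higher were 14 with RLE size factors, 15 with library totals and 16 without ribosomal genes, and each of these sets held all 14. They were 293 with DESeq2 (146 lower, against 0), 67 without the count filter (1 lower), 84 in the fit of 27 libraries (16 lower) and 8 in the 6 libraries alone. Without the treatment label as a block, 11 genes were called, all among the 14. For same-label libraries, the correlations of their deviations from the means of number 2 and number 1 came to 0.10 (mock), -0.01 (flg22) and -0.05 (Pep1). Between libraries of unlike labels they were -0.08 to 0.09. With 3 libraries on each side, such correlations cannot decide whether the label pairs the libraries, and the label was kept as a term of the design. Leaving out 1 library gave 8 to 25 genes called higher and 0 lower. Of the 14, 7 remained without mock of number 1, 9 without flg22 of number 1, 11 without Pep1 of number 1, and 12 without mock or flg22 of number 2. Of the 14, 6 passed in all 17 alternatives, and the highest adjusted p of the other 8 was 0.068 to 0.32.

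For pericycle minus cortex, DESeq2 called 132 genes higher and 183 lower, and no count filter 1 lower. Single libraries left out gave 0 to 4 higher and 0 to 1 lower. For pericycle minus epidermis, DESeq2 called 133 higher and 153 lower, and RLE size factors 2 lower. Single libraries left out gave 0 to 6 higher and 1 to 5 lower, with 6 higher without mock of number 1 and 1 lower without mock or without Pep1 of number 2. The 4 higher for the cortex came without mock of number 1.

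Genes near a log2 fold of 0 in the pericycle changed sign when 1 library was left out. RBOHD then ran over -0.066 to 0.26, MYB51 over -0.53 to 1.02, CYP83B1 over -0.28 to 0.35, JAZ6 over -0.16 to 0.24 and CNGC10 over -0.34 to 0.48. The sign turned without mock of number 2 for RBOHD, MYB51 and CYP83B1, without Pep1 of number 1 for CYP83B1, JAZ6 and CNGC10, without Pep1 of number 2 for JAZ6 and without flg22 of number 2 for CNGC10. The causes were not tested.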
